A study of Mus musculus with 36 samples.

Results

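The regions described here are stretches of mouse chromatin that carried histone H3 lysine 27 trimethylation (K27me3) far from any protein-coding gene start. Peaks on the 19 autosomes from 12 mice were merged wherever they overlapped, and a merged region was kept when it was under 30 kb wide, lay 100 kb or more from every transcription start site (TSS) of a protein-coding gene, and held a peak of at least 2 mice. This left 11834 distal regions, which were 41.1% of the 28814 autosomal regions found in 2 or more mice. Another 14073 regions of the same width limit lay within 100 kb of a TSS and serve as the comparison. The regions were thus chosen by their width, distance and presence in at least 2 mice, and those values are given as a description and were not tested.

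K27me3 is deposited by Polycomb repressive complex 2 (PRC2), whose catalytic subunit is EZH2, and it is known above all from CpG-rich promoters of silent developmental genes. The mark also lies at lower density over broad, gene-poor chromatin. H3 lysine 4 trimethylation (K4me3) marks the starts of active or primed genes, and its presence with K27me3 at 1 place is called a bivalent or primed state.

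The study took whole pancreata 22 days after the first tamoxifen (TX) gavage of mice that were 2 to 4 months old. The genotypes compared here, with 3 mice each, were control (labelled wildtype) and Mist1creERT/+ mice with deletion of the Ezh2 SET domain (Ezh2ΔSET). The other 6 mice had other genotypes, whose comparisons are not reported here, and their peaks were used to find the regions. TX-activated Cre driven by Mist1 acts in acinar cells, whereas the chromatin came from the whole organ, so it also holds cell types in which this driver is not known to act. Recombination was not measured in these files. Every mouse gave 1 list of K27me3 peaks and 1 list of K4me3 peaks, and each list holds peak positions with no height or read count.

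The acinar markers fitted the tissue label. A K4me3 peak lay within 3 kb of the TSS of each of 8 acinar genes, among them Cpa1, Cela1, Ptf1a and Bhlha15, in all 12 mice. Duct genes had such a peak in 11 or 12 mice, the fibroblast genes Col1a1, Pdgfra and Vim in 12, the immune gene Ptprc in 4, and the neuronal genes Rbfox3 and Snap25 in 0. Of the islet genes, Pdx1 had such a peak in 12 mice and Nkx6-1 in 11, while the insulin gene Ins2 and the glucagon gene Gcg were at 0. The liver gene Apoa1 had one in 11 mice and Alb in 3.

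A pair of features of the libraries bears on the comparison of genotypes. Ezh2ΔSET mouse 2 had 17 K27me3 peaks on the X chromosome, whereas the 3 control mice and the other 2 Ezh2ΔSET mice had 5637 to 7367. Of the 6 mice of other genotypes, 3 also had few X peaks (10 to 35). The labels give no sex for any mouse, and whether sex or a filter on some lists goes with this pattern was not tested. Control mouse 2 stood apart in another way. Of its 15782 autosomal peaks, 29.0% lay within 3 kb of a TSS, against 8.60% to 15.8% in the other 11 mice, and only 2794 were distal. In bulk tissue, fewer cells with a mark and less of the mark per cell cannot be told apart.

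Sequences from 5 distal regions are shown as examples of the DNA that carried the mark. Each is the 300 bp window with the most CpG dinucleotides among the windows of its region free of bases masked as repeats. It is taken from the plus strand of the mm10 genome, and capitals mark the CpGs. The first 2 come from the widest regions that held a K27me3 peak in all 12 mice. The first of them, between Igfbp3 and Tns3, had 3 CpGs in its richest window, and the second, between the lectin gene Mbl2 and the Wnt antagonist Dkk1, had 10.

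Igfbp3-Tns3, chr11:8336965-8337264: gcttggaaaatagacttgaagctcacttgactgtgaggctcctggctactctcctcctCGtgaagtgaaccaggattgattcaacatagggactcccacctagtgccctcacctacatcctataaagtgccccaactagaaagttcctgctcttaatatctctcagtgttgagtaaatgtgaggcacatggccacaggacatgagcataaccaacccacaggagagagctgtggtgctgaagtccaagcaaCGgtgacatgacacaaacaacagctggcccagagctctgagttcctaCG
Mbl2-Dkk1, chr19:30393016-30393315: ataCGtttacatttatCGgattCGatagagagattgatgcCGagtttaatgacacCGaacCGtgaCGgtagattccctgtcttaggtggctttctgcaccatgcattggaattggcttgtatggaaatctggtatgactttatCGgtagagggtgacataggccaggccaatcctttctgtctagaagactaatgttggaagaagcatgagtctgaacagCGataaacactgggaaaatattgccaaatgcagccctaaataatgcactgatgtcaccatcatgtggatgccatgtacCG

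The other 3 windows come from distal regions that also overlapped a K4me3 peak in all 12 mice. They held 24, 41 and 23 CpGs in the same length. The first lies in a region with the long noncoding RNA genes Gm32618 and Gm41289, the second in one with the long noncoding RNA gene 9530059O14Rik, and the third in one between Kif2a and Smim15 with no annotated long noncoding RNA.

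Sema5a-Sdc2, chr15:32778957-32779256: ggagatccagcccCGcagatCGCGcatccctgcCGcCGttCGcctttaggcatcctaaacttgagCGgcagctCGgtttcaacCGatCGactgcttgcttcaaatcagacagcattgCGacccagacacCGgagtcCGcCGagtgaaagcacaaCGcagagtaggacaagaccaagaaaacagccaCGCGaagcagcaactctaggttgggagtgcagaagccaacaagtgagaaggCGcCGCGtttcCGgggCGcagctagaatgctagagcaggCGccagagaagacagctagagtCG
9530059O14Rik, chr9:122568944-122569243: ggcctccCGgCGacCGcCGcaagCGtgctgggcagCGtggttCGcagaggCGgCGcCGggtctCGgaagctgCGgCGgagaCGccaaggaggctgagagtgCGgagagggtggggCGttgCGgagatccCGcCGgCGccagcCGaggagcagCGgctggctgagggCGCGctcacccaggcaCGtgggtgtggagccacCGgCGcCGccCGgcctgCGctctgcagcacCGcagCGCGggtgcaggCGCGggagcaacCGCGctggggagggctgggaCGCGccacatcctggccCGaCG
Kif2a-Smim15, chr13:107645280-107645579: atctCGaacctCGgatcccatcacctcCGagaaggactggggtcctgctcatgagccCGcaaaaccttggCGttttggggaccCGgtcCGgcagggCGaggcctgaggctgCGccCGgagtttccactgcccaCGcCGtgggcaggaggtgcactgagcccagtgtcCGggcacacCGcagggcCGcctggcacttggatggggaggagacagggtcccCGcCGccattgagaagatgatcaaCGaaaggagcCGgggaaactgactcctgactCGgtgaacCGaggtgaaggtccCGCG

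The CpG-rich windows were the exception among distal regions. Counting windows free of repeats, 166 distal regions (1.40%) had a window with 15 or more CpGs, against 12.2% of the regions within 100 kb of a TSS. With repeats included the shares were 8.74% and 21.7%. Only the regions within 100 kb of a TSS can hold a protein-coding TSS, so the choice of regions bears on these shares. The median distal region had a GC content of 39.0% and 5.35 CpGs per kb, compared with 40.9% and 6.99 for the regions near a TSS. All autosomal sequence 100 kb or more from a TSS had 39.7% GC and 6.39 CpGs per kb when pooled, so the median distal region held fewer CpGs per kb than the sequence available to it. Bases masked as repeats made up 29.8% of the median distal region and 36.5% of that pooled sequence.

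Distal regions found in more mice more often held a CpG-dense window. A repeat-free window with 15 or more CpGs was present in 0.853% of those found in 2 mice, 0.972% in 3 to 5 mice, 1.63% in 6 to 8, 2.57% in 9 to 11 and 5.81% of the 241 found in all 12. Wider regions offer more windows, and width rose along the same order. Among distal regions of 10 to 20 kb the shares were 1.60%, 1.18%, 1.71%, 2.86% and 3.92%, with 4 of 102 regions in the last group. The regions near a TSS had 11.6%, 10.5%, 10.6%, 16.0% and 21.2% over all widths, and at 10 to 20 kb they had 31.0% at 2 mice, the highest of the 5 groups, 14.6% at 3 to 5, the lowest share at 6 to 8 (186 of 1852 regions), 13.9% at 9 to 11 and 15.1% at 12.

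**Figure D1:**
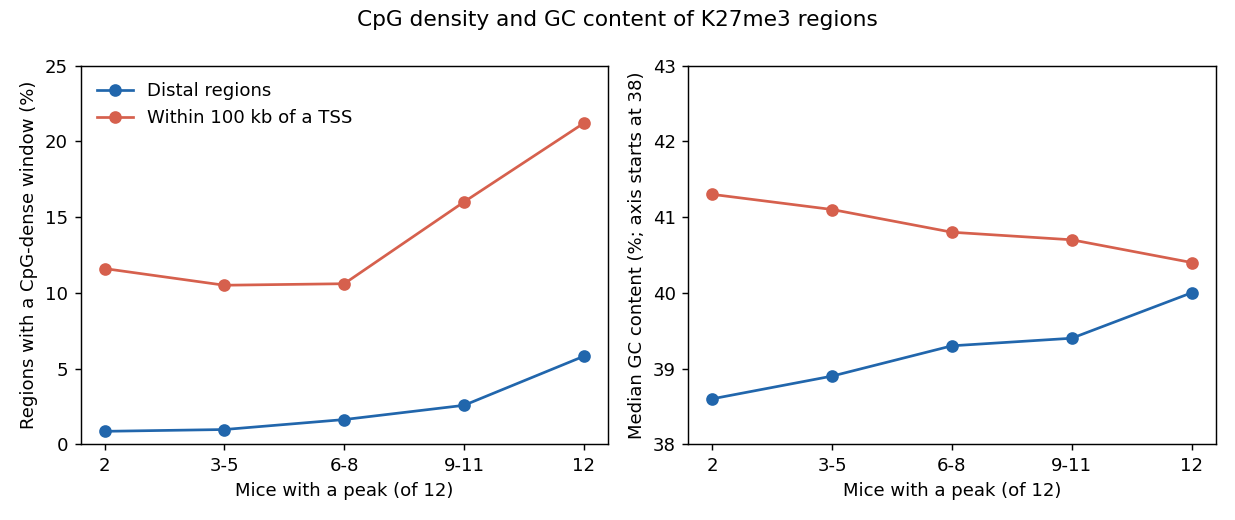
Left, percentage of K27me3 regions that hold a repeat-free 300 bp window with 15 or more CpGs, and right, median GC content (axis from 38%), by the number of mice with a peak there, for distal regions (blue) and regions within 100 kb of a TSS (red). The distal line stays at 5.81% or below and the other line at 10.5% or above.

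Most distal regions were found in few mice. A peak of exactly 2 mice was present at 3049 of the 11834 (25.8%), the median was 4 mice, and 1291 regions (10.9%) were shared by 10 or more. Of the regions near a TSS, 16.3% were shared by 10 or more mice, and 4.75% by all 12, against 2.04% of distal regions. Among regions under 30 kb, the distal share was 48.3% at 2 mice, 44.8% at 8 mice and 26.5% at 12 mice. A further 6607 regions of the same width and distance had a peak in 1 mouse and were not counted as members.

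Width grew with sharing. The median was 7.06 kb for distal regions of 2 mice, 12.3 kb for 6 mice and 21.1 kb for 12 mice. A merged region can only grow as more lists contribute to it, and the regions near a TSS went from 7.47 to 21.8 kb over the same steps. Across all distal regions the median width was 10.1 kb, with quartiles of 7.62 and 14.7 kb, and the regions covered 140 Mb. The narrowest was 5001 bp, which was also the narrowest autosomal K27me3 peak of any list, and the widest was 29998 bp, with the next far region above the limit at 30014 bp. In each mouse taken alone, the median distal peak was 6.26 to 6.33 kb wide, with no genotype outside this range.

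**Figure D2:**
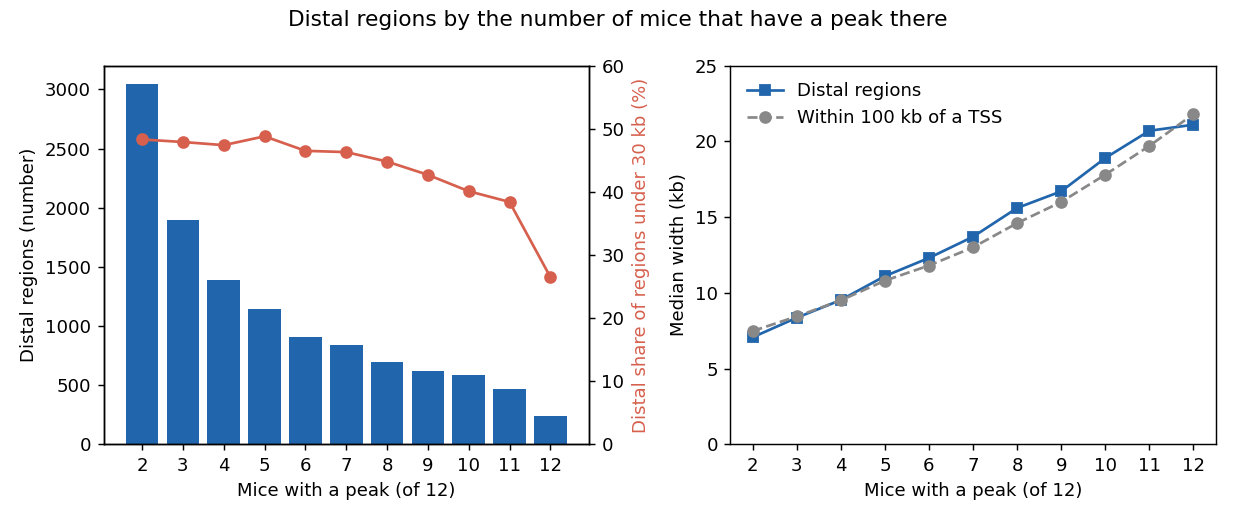
Left, number of distal regions (bars) and distal share of all regions under 30 kb (red line, right axis) by the number of mice with a peak, and right, median width of distal regions (blue) and of regions within 100 kb of a TSS (grey). Numbers fall from 3049 to 241 and widths rise from 7.06 to 21.1 kb for the distal regions.

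The 12 widest regions with a peak in all 12 mice had varied neighbors. They include a region 445 kb from Ebf1, a B-cell transcription factor (chr11:45062717-45092455), one 120 kb from Prdm13, a neural regulator (chr4:21537198-21566280), and one that holds the immunoglobulin heavy chain segment Ighv5-12-4 (chr12:113739404-113768968). Only 1 of the 12 lay in the body of a protein-coding gene, Ano2 (chr6:125877801-125906943). None of the 12 overlapped a K4me3 peak in any mouse.

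Regions near the distance limit lay 100017 bp (inside) and 99995 bp (outside) from a TSS. The median distance was 252 kb, and 301 regions (2.54%) were 1 Mb or more away. Sequence 100 kb or more from a TSS made up 38.7% of the autosomes (926 Mb of 2396 Mb) and held 12.8 distal regions per Mb. Per Mb of sequence at the same distance, there were 14.2 regions at 100 to 200 kb, 14.9 at 200 to 300 kb, 14.1 at 300 to 500 kb, 10.6 at 500 to 1000 kb and 3.91 beyond 1000 kb. The density was thus level up to 500 kb and lower past it, and the median GC content of the regions went from 39.8% to 36.3% over the same 5 bins.

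The 5 farthest regions all lay in the stretch between Celf4 and Pik3c3 on chromosome 18, 2106 to 2238 kb from a TSS. The farthest, chr18:28023049-28034944, had a peak in 3 of the 12 mice, among them 1 control and 1 Ezh2ΔSET mouse. Another region of the stretch, chr18:28063136-28081483, had one in 6 mice, 2 of them control and 2 Ezh2ΔSET.

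The number of distal regions varied between gene-poor stretches. The autosomes had 2318 uninterrupted stretches 100 kb or more from every TSS, and 1341 of them (57.9%) held a distal region. Those were also the longer ones, with a median of 356 kb against 63.9 kb for stretches without one. The 416 stretches with 10 or more contained 8392 regions (70.9%). The most lay between Khdrbs3, an RNA-binding protein, and Fam135b on chromosome 15, with 80 regions in 2.60 Mb. Next was the stretch between Prmt6 and Amy2a5 on chromosome 3, with 69 in 2.81 Mb. Amy2a5 encodes a pancreatic amylase made by acinar cells, and it was the nearest protein-coding gene of 42 distal regions, 7 of them shared by 10 or more mice. Celf4 to Pik3c3 held 66, and Sorcs3 to Sorcs1, a pair of sorting receptor genes, held 62.

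Long stretches with no distal region also existed. Among the 548 stretches of 500 kb or more, density ran from 0 to 43.9 regions per Mb with a median of 12.2. The highest value was between Gm12887 and 9530002B09Rik on chromosome 4, with 35 regions in 0.798 Mb. The longest stretch at 0 was the 2.04 Mb between Cadm2, a synaptic adhesion gene, and Speer2 on chromosome 16, and the 1.84 Mb between the cadherin genes Cdh9 and Cdh10 on chromosome 15 was also at 0. A 0 means that no region met the rule there, since a peak in 1 mouse or a wider region is not counted.

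Density moved with base composition. The 548 stretches were put into 4 groups of 137 by GC content. In the group with the lowest GC content (35.1% to 37.7%) there were 6.58 distal regions per Mb. The other groups had, in order of rising GC content, 13.4, 17.5 and 17.8. The 3 longest stretches without a distal region had 35.8%, 36.5% and 36.1% GC. The AT-rich stretches were also the longer ones, with 67.2% of the lowest group at 1 Mb or more against 21.2% of the highest, and the amount of mappable sequence was not measured. The part of GC content, length and mappability in these densities was not tested.

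**Figure D3:**
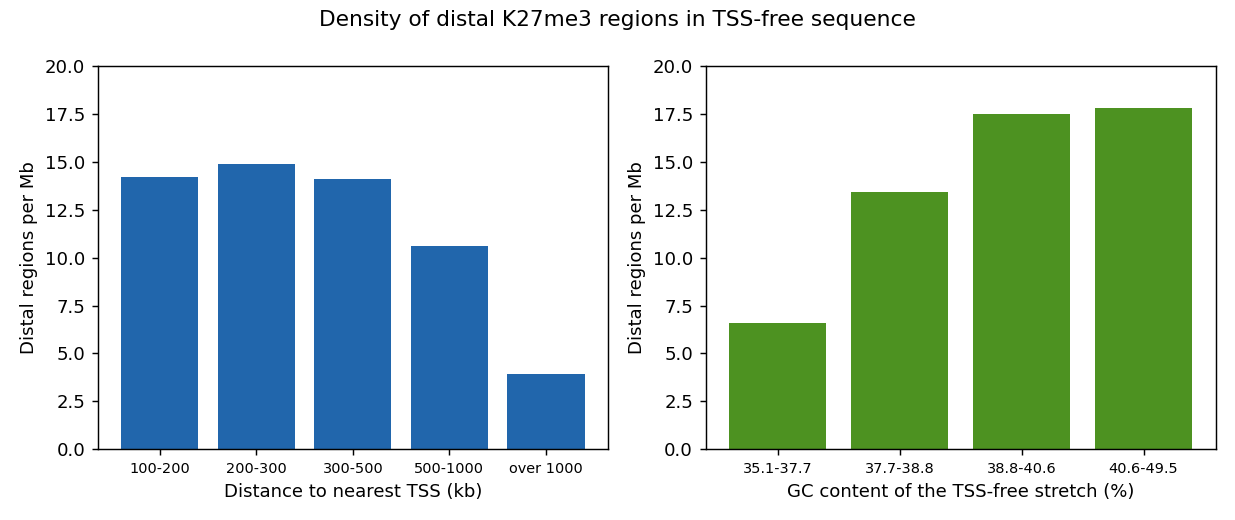
Distal K27me3 regions per Mb of sequence 100 kb or more from a TSS, left by distance to the nearest TSS and right by GC content of 4 equal groups of the 548 stretches of 500 kb or more. Density falls to 3.91 per Mb beyond 1000 kb and is 6.58 per Mb in the most AT-rich group.

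Most distal regions overlapped no annotated gene of any type (7840, or 66.2%). A protein-coding gene body held 17.4% of them and 47.4% of the regions near a TSS. Gene bodies took up 16.8% of the bases of distal regions and 19.5% of all bases 100 kb or more from a TSS. Long noncoding RNA genes overlapped 11.9% of distal regions and 9.81% of their bases, against 8.39% of the bases available. A long noncoding RNA start lay in 2.75% of all distal regions, in 1.34% of those of 2 mice and in 7.47% of those of 12 mice. Antigen receptor segments lay in 74 regions (0.625%), and in 3.73% of those of 12 mice. Regions of 12 mice were also wider, with a median of 21.1 kb against 7.06 kb for those of 2 mice. A wider region can overlap more, and these shares were not matched for width.

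Among genes whose bodies held distal regions, Lsamp had the most. Lsamp, a cell adhesion gene of the nervous system, held 48, Magi2 and Ctnna2 28 each, and the netrin receptor gene Dcc 25. Malrd1 and the cadherin gene Cdh13 followed with 23 each, and Thsd7b, the transcription factor gene Npas3 and the glycosyltransferase gene Galntl6 had 22 each. Few of the regions in the first 4 were widely shared, with 1 region of 10 or more mice in each of Lsamp, Ctnna2 and Dcc and 0 in Magi2. Nrxn3, a presynaptic adhesion gene, had 22 regions, of which 8 were shared by 10 or more mice.

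By nearest gene, the regions of 5 gene lists ranged in how widely they were shared. For 135 neuronal adhesion and synapse genes, 1143 distal regions had a listed gene nearest, the median was 3 mice, and 5.16% were shared by 10 or more. For 100 developmental transcription factors outside the homeobox family there were 349 regions, with a median of 5 mice and 16.3% shared by 10 or more. The 77 homeobox regulators had 278 regions with 11.2% so shared, the 72 secreted signals and antagonists 220 with 10.5%, and the 61 pancreas identity genes 108 with 15.7%. All distal regions stood at 10.9%. The listed genes that were nearest to any distal region numbered 104, 52, 40, 33 and 11, in the order given here. The shares thus describe regions near these genes and not the whole lists. The nearest gene is a position and no evidence of a target.

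Named regions of these lists lay between genes or inside one. Regions with a peak in all 12 mice included one 162 kb from Otx2, a forebrain homeobox gene, that overlaps the noncoding gene Otx2os1 (chr14:48835885-48863427), one in the body of Zfhx3 (chr8:108229242-108257830), one 331 kb from Gata3 (chr2:9518671-9547528) and one 207 kb from the Wnt agonist gene Rspo2 (chr15:42939412-42963840). A region 117 kb from Nkx6-1, a transcription factor of beta cells, was also called in all 12 (chr5:101533718-101548293), and the Nkx6-1 TSS itself had a K27me3 peak within 3 kb in 12 mice. Regions 372 kb from Reg3g and 369 kb from the insulin gene Ins1 were called in 11 mice, the exception being 1 control mouse in each case.

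K4me3 was rare in distal regions. A K4me3 peak of at least 1 mouse overlapped 85 of them (0.718%), against 9.42% of the regions near a TSS, and 10 overlapped one in all 12 mice. The distance rule keeps every protein-coding TSS out of distal regions but not out of the comparison regions. The choice of regions thus bears on the contrast in K4me3. The 85 regions had a median of 12 CpGs in the richest repeat-free window, against 5 for the others, and 18.8% held a long noncoding RNA start, against 2.64%. The region with 9530059O14Rik shown above (chr9:122560769-122579010) had a K27me3 peak in 10 of the 12 mice, with 2 control and 2 Ezh2ΔSET mice among them. The region with Gm32618 (chr15:32765693-32784283) had one in 9 mice, with 2 control and 3 Ezh2ΔSET mice among them, and the region between Kif2a and Smim15 (chr13:107640349-107651746) in 8, with 1 control and 2 Ezh2ΔSET mice among them. A region between Smad2 and Skor2 (chr18:76541433-76555551), also with K4me3 in all 12 mice, was less dense, with 12 CpGs in its richest window. The 3 regions shown above were chosen for K4me3 in the most mice, and none of them carried K27me3 in every mouse.

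K4me3 was measured apart from the rule, so the genotypes could be tested for it. It overlapped 52, 27 and 45 distal regions in control and 42, 50 and 46 in Ezh2ΔSET mice. The groups overlapped, with control mouse 2 the lowest. As a share of all distal regions this was 0.349% ± 0.109 (SD, n = 3) in control and 0.389% ± 0.0338 in Ezh2ΔSET tissue, a difference of 0.0394 percentage points that did not pass the test (exact two-sided permutation p = 0.800). The smallest p that 3 mice against 3 can give is 0.1. With control mouse 2 left out and the regions found anew from the other 11 mice, the difference was -0.0297 percentage points. The K4me3 counts above do not require a K27me3 peak of the same mouse in the region. Distal regions with both marks in the same mouse numbered 17, 13 and 23 in control and 18, 26 and 22 in Ezh2ΔSET mice.

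The comparison of genotypes asked whether loss of EZH2 activity in acinar cells altered K27me3 in this distal chromatin. Here each mouse was scored on its own list, without the requirement of a second mouse. The control mice had 12609, 2794 and 10952 distal peaks, which were 52.6%, 17.7% and 47.0% of their autosomal peaks. The Ezh2ΔSET mice had 10257, 13426 and 9276, or 43.3%, 46.6% and 40.2%. Control mouse 2 was the lowest and Ezh2ΔSET mouse 2 the highest in number, and the groups overlapped.

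The difference in number did not pass the test. The means were 8785 ± 5254 (SD, n = 3) in control and 10986 ± 2169 in Ezh2ΔSET tissue, 25.1% apart (exact two-sided permutation p = 0.700). The adjusted p was 1.00 for each of the 3 measures, which were distal peaks, distal share and K4me3 (Benjamini-Hochberg adjustment of the exact permutation values). Sequencing depth is unknown for all 12 libraries, as the lists carry no read counts, and unequal depth would alter these numbers. With equal numbers of the widest peaks taken from each list, the difference was 7.83% (exact permutation p = 1.00). The number was set by the shortest list, that of control mouse 2 (15782 peaks), which entered whole. The other lists lost their narrowest peaks, so this is no correction for depth.

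The direction rested on control mouse 2. With it, the mean distal share was 39.1% ± 18.7 (SD, n = 3) in control and 43.4% ± 3.20 in Ezh2ΔSET tissue (exact permutation p = 1.00). Without it, the 2 remaining control mice (47.0% and 52.6%) lay above all 3 Ezh2ΔSET mice (40.2% to 46.6%). The difference then was -6.41 percentage points (exact permutation p = 0.200, the smallest that 2 mice against 3 can give). In numbers of distal peaks, the difference went from 25.1% to -6.74%.

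**Figure D4:**
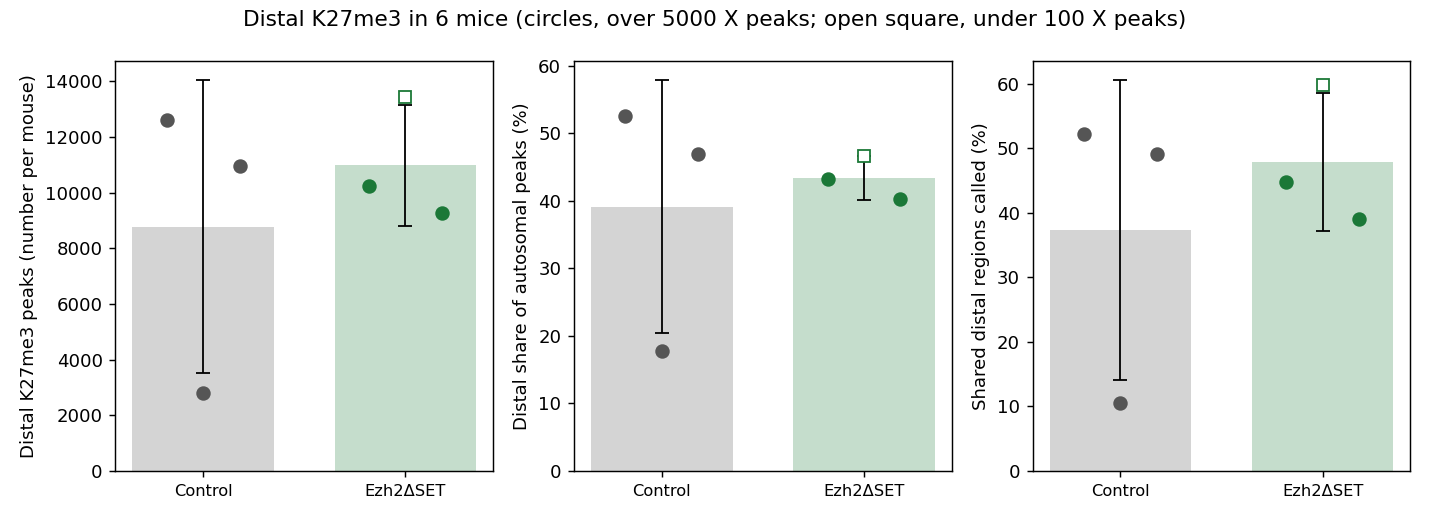
Distal K27me3 peaks per mouse (left), their share of the mouse's autosomal peaks (middle) and the percentage of the 11834 shared distal regions called in the mouse (right), in control and Ezh2ΔSET mice. Bars are means and error bars SDs of 3 mice, the open square is the mouse with 17 peaks on the X chromosome, and 1 control mouse sits below every other mouse in all 3 panels.

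The 11834 regions themselves were called in 6185, 1250 and 5811 cases in control and 5307, 7073 and 4632 in Ezh2ΔSET mice. Control mouse 2 called 10.6% of them but 38.7% of the regions near a TSS, a share inside the 35.4% to 53.8% of the other 5 mice. Control mouse 1 was the reverse, with 52.3% of distal and 35.4% of near regions. The Ezh2ΔSET mice called 44.8%, 59.8% and 39.1% of distal and 44.7%, 53.8% and 46.5% of near regions. All 3 mice had a call at 544 distal regions in control and at 2284 in Ezh2ΔSET tissue, which were 4.60% and 19.3% of distal regions. The regions near a TSS had the same order, with 8.78% and 22.9%. Control mice 1 and 3 alone shared 3604 distal regions, or 30.5%, beside 22.5% of the regions near a TSS and 32.2% of all autosomal regions.

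Pairs of mice shared distal regions to a similar extent within and between the genotypes. Leaving out control mouse 2, a pair of mice of 1 genotype had in common 37.5% to 42.9% of the distal regions called in either (median 42.0%, 4 pairs), and a control and an Ezh2ΔSET mouse 31.9% to 46.3% (median 39.2%, 6 pairs).

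Few regions separated the genotypes completely. A region was counted as gained when all 3 Ezh2ΔSET mice and 0 of 3 control mice had a peak, and as lost in the opposite case. There were 202 distal regions gained, or 1.71% of distal regions, beside 1.66% of all 28814 autosomal regions. There were 9 lost, or 0.0761%, beside 0.0833% of all regions. Read against the shares of all regions, which were close by, these counts show nothing particular to distal regions.

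The counts were also made without control mouse 2. Distal regions lost against control mice 1 and 3 were then 425 (3.59%, beside 2.23% of all autosomal regions), and gained regions were 238 (2.01%, beside 2.61%). A loss then takes the agreement of 2 control mice rather than 3. Under the same criterion, leaving out control mouse 1 instead gave 435 gained (3.68%, beside 3.21%) and 41 lost (0.346%, beside 0.590%), and leaving out control mouse 3 gave 491 gained (4.15%, beside 3.94%) and 25 lost (0.211%, beside 0.302%). Leaving out Ezh2ΔSET mouse 1, 2 or 3 gave 3.57%, 3.52% and 4.18% gained (beside 3.40%, 3.30% and 3.64%) and 0.127%, 0.262% and 0.135% lost (beside 0.163%, 0.302% and 0.194%). Of these 6 choices, losses outnumbered gains only with control mouse 2 left out.

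**Figure D5:**
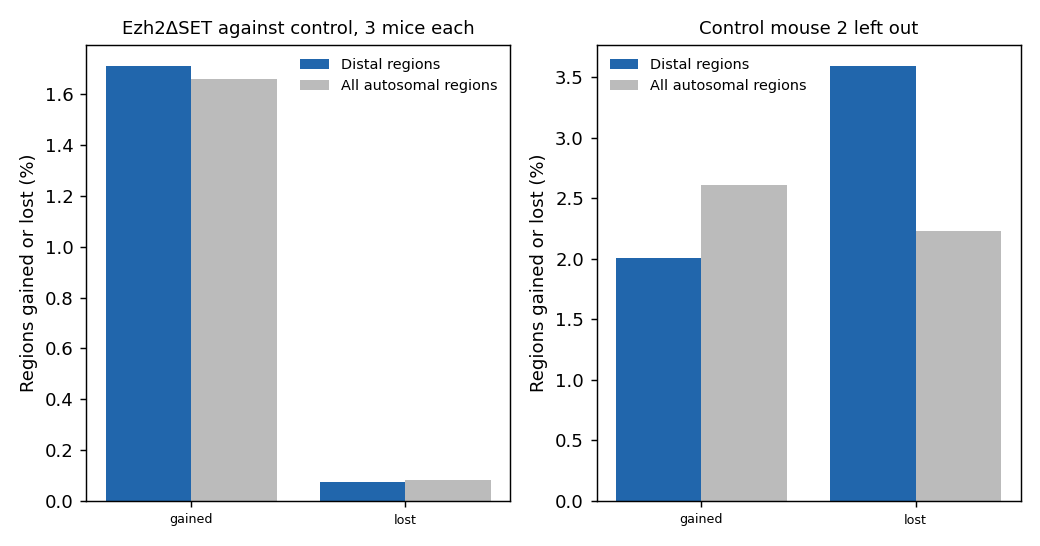
Percentage of distal regions (blue) and of all 28814 autosomal K27me3 regions (grey) called in all Ezh2ΔSET mice and no control mouse (gained) or the opposite (lost), with 3 mice each (left) and without control mouse 2 (right). Blue and grey bars are close on the left, and on the right, where a loss takes only 2 control mice, the blue bars stand at 2.01% (gained) and 3.59% (lost).

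The widest regions of these kinds lay beside or inside a range of genes. The widest gained region (chr8:109094569-109124194) lay 370 kb from Pmfbp1, between it and the homeobox gene Zfhx3, overlapped the noncoding gene D030068K23Rik and was called in 8 of the 12 mice. The next, in the body of Lhfpl3 (chr5:22909063-22937949), was also called in 8. Another lay 511 kb from Pappa, which encodes a protease of insulin-like growth factor binding proteins (chr4:64586830-64613070), and was called in 6.

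In the opposite direction, a region 147 kb from Igsf10 (chr3:59491462-59511543) was called in 5 of the 12 mice, and repeats made up 60.3% of its bases. A region in the body of Rnf150 (chr8:83013787-83031204), 79.6% of it repeats, was called in the 3 control mice and in none of the other 9. Both are richer in repeats than the median distal region.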

How the data were processed

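The authors performed ChIP-Seq for K27me3 and K4me3 on whole pancreas, mapped reads to the mm10 build with bowtie2 and used HOMER in histone mode to call the peaks of each mouse. Tool versions are not given in the sources used here. The deposited lists hold peak coordinates (chromosome, start, end), and their score column holds the same value for every peak and was not used. Read counts are not in these lists.

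K27me3 peaks of 12 mice were merged by an overlap of 1 bp. TSSs were the 52063 starts of protein-coding transcripts in GENCODE M21 (20722 genes). Sequence came from the GRCm38 genome, and repeats are the bases that its sequence gives in lower case (masked). No separate repeat annotation was used. The regions and gene lists were chosen with earlier results of these data known. Named regions are the 12 widest called in most mice, 5 farthest, 3 widest gained and lost in Ezh2ΔSET against control, 5 with K4me3 in most mice, and 3 per gene list, of which some are given. Comparisons of the other genotypes, and a few named regions, are not reported here. Genotypes were compared over mice with two-sided exact permutation tests. The labels call the mice biological replicates. Replicate numbers did not pair mice (correlations of deviations -0.07 to 0.02). The code was tested on simulated data. Python 3.11.15, numpy, pandas, scipy and statsmodels were used.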

Additional observations from a re-analysis of the deposited data

How the results depend on the processing

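Of 42 values under another choice, 37 kept their direction and, for counts and shares of regions, stayed within 1.5 times. A median width was taken as kept when it moved by less than 0.849 kb, the SD of the median widths of the 12 mice. With starts of genes of every type there were 2518 distal regions, and the K4me3 difference between Ezh2ΔSET and control was 0. With a minimum of 200 kb there were 7394 regions, and with 3 or more mice required the median width was 11.9 kb. Lost regions were 0.0254% when peaks had to cover most of the region. The cause was not tested. With the replicate block, where log ratios rather than numbers were averaged, the difference in distal peaks was 49.0% (exact sign-flip permutation p = 1.00), and 2 of the 3 same-numbered pairs were lower in Ezh2ΔSET. The distal share difference was 0.909 percentage points with starts of genes of every type, and distal peaks differed by 7.83% over equal numbers of the widest peaks. Same-numbered mice had deviations with correlations of -0.07 to 0.02, so they share only a number, and 0 of 3 Ezh2ΔSET mice correlated best with their own number.

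Leaving out 1 mouse at a time, distal peaks ran from -6.74% to 59.8%, the distal share from -6.41 to 11.1 percentage points and the K4me3 share, over regions found anew from the other 11 mice, from -0.0297 to 0.0897 percentage points. The lowest values came without control mouse 2 and the highest without control mouse 1. Gained regions ran from 2.01% (without control mouse 2) to 4.18% (without Ezh2ΔSET mouse 3), beside 2.61% and 3.64% of all autosomal regions. Lost regions ran from 0.127% (without Ezh2ΔSET mouse 1) to 3.59% (without control mouse 2), beside 0.163% and 2.23%. Asking for fewer mice can only raise these. Distal regions called in all remaining mice ran from 675 to 3604 in control and from 2953 to 3638 in Ezh2ΔSET tissue. The 3604, without control mouse 2, were 30.5% of distal regions, beside 32.2% of all autosomal regions. The share over all regions is not given for the other counts, so they are no result about distal regions. The number of distal regions stayed between 11143 and 11792 with any of the 12 mice left out. With 3 mice a group, no permutation test here could reach 0.05.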
